A study of Mus musculus with 6 samples.

Results

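The genes described here are 50 mouse genes of DNA damage repair, taken by name from a fixed list of members of the main repair pathways and of the checkpoint kinases that respond to DNA breaks. All 50 were among the 34745 genes counted in every library, and 49 of them had more than 500 counts summed over the 6 libraries, the minimum for testing. Fancc, with 403 counts in all, did not pass this minimum. The series held 6 RNA-seq libraries of 889 cells, a murine lung cancer cell line labelled as C57BL/6 lung, expressing Cas9 from a lentivirus. In 3 libraries the cells carried a control sgRNA against EGFP (sg-con), and in 3 they carried an sgRNA against kiaa1522 (sg-kiaa1522), and no library was labelled as treated with cisplatin. The series asked how kiaa1522 affects resistance to cisplatin, a drug that crosslinks DNA. Which of the guides was used, whether the cells were a pool or a clone, and whether replicates were separate cultures are not given in the sources used here, so the p-values measure the spread between these libraries, which may be technical.

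DNA repair is divided among pathways that each recognise a kind of lesion. Nucleotide excision repair cuts out bulky adducts and the intrastrand crosslinks left by platinum drugs. Base excision and single-strand break repair handle damaged bases and nicks. Interstrand crosslinks are unhooked through the Fanconi anemia proteins, and the resulting double-strand break is then repaired by homologous recombination from the sister chromatid, mostly in S and G2 phase. Mismatch repair corrects replication errors, and translesion polymerases copy past lesions that remain. The kinases ATM and ATR signal the damage to CHK2 and CHK1.

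The libraries held between 12220001 and 18609376 counts, and 3 counts corresponded to between 0.161 and 0.245 counts per 1000000 (CPM). The targeted gene kiaa1522, listed as C77080, had 127, 129.7 and 124 CPM in sg-con and 210.4, 203 and 216 CPM in sg-kiaa1522. Its mRNA was therefore higher in every library labelled sg-kiaa1522, with a log2 fold change of 0.73 (SE 0.0569) and a p of 9.1e-05 by the quasi-likelihood test of edgeR, adjusted over all tested genes by the Benjamini-Hochberg method, and all directions below are for libraries so labelled. An mRNA count does not show whether a frameshift is present. Of the lung epithelial markers, Krt8, Krt18, Krt19, Cdh1, Nkx2-1 and Sftpb passed the minimum for testing, whereas Epcam had 0 counts in every library and Cldn4 had at most 1. Napsa had 19, 18 and 21 counts in sg-con and 1, 5 and 3 in sg-kiaa1522, and Sftpc had 110, 20 and 45 against 8, 15 and 25. Nkx2-1 had 55.7, 59.1 and 13.6 CPM in sg-con and 10.9, 9.49 and 39.5 CPM in sg-kiaa1522, so replicate 3 of each group stood apart. Of the 6 tested epithelial markers 5 were lower in sg-kiaa1522, with a median log2 fold change of -0.70 and Cdh1 at -1.45, and the list of 10 summed to between 3876 and 4641 CPM in sg-con and to between 3240.3 and 3498 CPM in sg-kiaa1522. The summed level of 6 leukocyte markers lay between 2.26 and 6.29 CPM in sg-con and between 11 and 13.6 CPM in sg-kiaa1522, with Cd3e at 0 throughout. Cd68 alone was higher, with 21, 23 and 19 counts in sg-con and 122, 235 and 186 in sg-kiaa1522, whereas Lyz2 had 63, 18 and 37 counts in sg-con and 11, 17 and 16 in sg-kiaa1522, and Ptprc had 14, 1 and 6 against 1, 2 and 2. The 4 fibroblast markers summed to between 6.35 and 8.74 CPM in sg-con and to between 1.64 and 2.46 CPM in sg-kiaa1522. The part of these levels in the repair genes' values was not tested. In bulk libraries, fewer cells of a type and less RNA per cell cannot be told apart.

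Among the 49 tested repair genes, 19 were lower and 11 were higher in sg-kiaa1522 at an adjusted p of at most 0.05, and 19 were not called. These shares, 38.8% lower and 22.4% higher, stand beside 26.3% of all 10046 tested genes lower and 26.3% higher. At the threshold given in the study's methods, which also asks for a change of at least 1 on the log2 scale, 1 repair gene was lower, Fanci, and 0 were higher, beside 4.34% of all tested genes lower and 2.74% higher. The study's volcano plot used a larger size of change, 2, which no repair gene reached, as their log2 fold changes lay between -1.44 and 0.99. With no adjustment of p the higher count at a log2 fold change of at least 1 was still 0, as it was by DESeq2's Wald test, and Atm lay just inside 1 at 0.99. The lower count at the threshold of the study's methods was 2 without sg-kiaa1522 replicate 2 and 2 without sg-kiaa1522 replicate 3. The higher count at that threshold was 1 without sg-con replicate 1 and 1 without sg-kiaa1522 replicate 1. The CPM of the groups did not overlap for 33 repair genes, while 61.7% of all tested genes had groups that did not overlap. The median log2 fold change was -0.11 over the repair genes and -0.0067 over all tested genes. The count of higher genes depended on single libraries, as it fell to 4 without sg-con replicate 2, to 7 without sg-con replicate 3, to 7 without sg-kiaa1522 replicate 2 and to 6 without sg-kiaa1522 replicate 3. The share of all tested genes called higher also fell in these fits, to 20.5%, 22.5%, 20.8% and 20.6%, beside 8.16%, 14.3%, 14.3% and 12.2% of the repair genes. The count of lower genes lay between 13 and 17 in the 6 fits that left out a library, or 26.5% to 34.7%, while 20.7% to 29.5% of all tested genes were lower.

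By pathway, most calls in homologous recombination, crosslink and single-strand break repair were lower, and most in nucleotide excision repair were higher. The difference between pathways was not tested. Over all tested genes, 26.3% were lower and 26.3% higher. Homologous recombination had 8 lower and 1 higher of 14 genes, with a median log2 fold change of -0.42. The interstrand crosslink genes had 5 lower and 1 higher of 10 tested, with a median of -0.29, and all 3 genes of single-strand break and base excision repair were lower, with a median of -0.42. Nucleotide excision repair had 6 of 12 higher and 1 lower, with a median of 0.11. The 4 checkpoint kinases were split into 2 higher and 2 lower, 1 of 3 translesion genes was higher, and 0 of 3 mismatch repair genes were called.

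**Figure D1:**
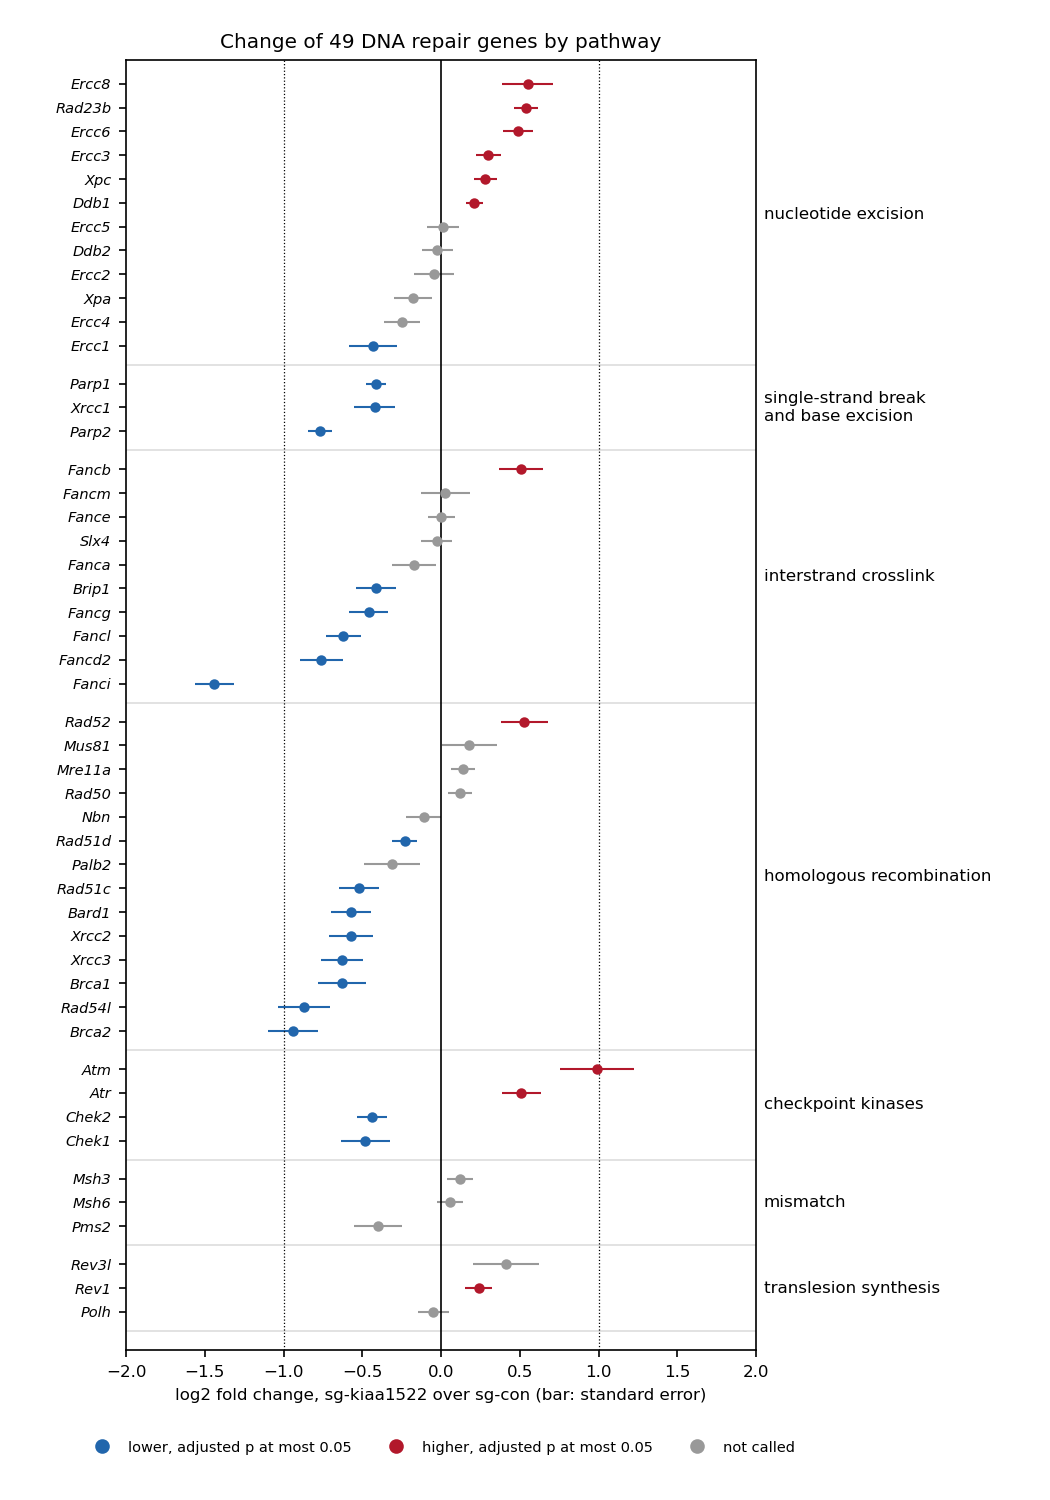
Log2 fold change (x axis, sg-kiaa1522 over sg-con) of the 49 tested repair genes by pathway, with bars of 1 standard error and colours for genes called lower, higher or not called at an adjusted p of at most 0.05. Dotted lines mark log2 fold changes of -1 and 1, and only Fanci, at -1.44, lies beyond one of them.

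Promoter sequences were read for the called and uncalled genes alike. E2F factors switch on S phase genes through sites in their promoters, and the search used the letters TTTCCCGC, TTTGGCGC and TTTCGCGC on both strands of RefSeq windows from 250 bases before to 50 bases after the start (GRCm38.p6). The letters TTTGGCGC and TTTCGCGC can overlap on opposite strands, as they did in the Msh3 window. Of the 41 repair genes with a window, 7 held a match (17.1%), beside 4.61% of the tested genes with a window. A gene was counted as matched if any of its windows held the letters. Counted singly, 1.84% of all 32851 windows of the same length held a match, which is not a share of genes. The 16 lower genes with a window included 5 with a match, namely Bard1, Fancg, Chek2, Brca2 and Rad51c. The 9 higher genes with a window included 0, and the 15 with no call included 2, Msh3 and Msh6. Of all tested genes called lower, 5.83% held a match, and of those called higher, 3.43%. The CCAAT letters, the core of the NF-Y site, were in 6 of 16 lower, 4 of 9 higher and 12 of 15 uncalled members, beside 43.5% of tested genes and 37.4% of all windows. The letters TTTGAA of the cell cycle element CHR were in 2 of 41 members (4.88%) and 1 of 16 lower ones, beside 13.5% of tested genes and 17.9% of all windows. A match is a description of letters and does not show that a factor binds there. Stretches upstream of the start are shown for 3 lower genes with a match and for 2 higher genes without, with the E2F letters, read on either strand, in capitals.

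Brca2, chr5:150522397-150522516, plus strand: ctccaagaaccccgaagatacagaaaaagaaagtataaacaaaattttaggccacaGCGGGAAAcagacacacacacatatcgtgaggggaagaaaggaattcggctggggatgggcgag
Bard1, chr1:71103147-71103222, minus strand: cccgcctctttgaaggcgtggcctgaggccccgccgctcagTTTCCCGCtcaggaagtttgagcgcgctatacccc
Chek2, chr5:110839778-110839897, plus strand: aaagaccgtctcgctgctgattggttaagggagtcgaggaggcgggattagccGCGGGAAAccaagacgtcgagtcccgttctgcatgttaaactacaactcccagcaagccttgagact
Atm, chr9:53536741-53536860, minus strand: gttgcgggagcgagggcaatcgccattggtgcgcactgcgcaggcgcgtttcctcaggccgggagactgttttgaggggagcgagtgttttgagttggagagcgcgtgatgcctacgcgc
Rad23b, chr4:55349922-55350041, plus strand: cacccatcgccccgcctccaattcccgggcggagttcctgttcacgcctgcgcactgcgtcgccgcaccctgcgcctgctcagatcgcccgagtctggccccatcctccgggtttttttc

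Each stretch is written 5′ to 3′ along the gene's strand, ends at or before the RefSeq start and holds no base of an annotated exon. The match in Brca2 began 168 bases before the start, that in Bard1 209 bases before it and that in Chek2 152 bases before it.

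Interstrand crosslink repair held the member with the largest change. Fanci encodes a subunit of the clamp that the Fanconi core complex ubiquitinates at a crosslink, and lies on the plus strand of chromosome 7 from 79391929 to 79450264 (ENSMUSG00000039187, GRCm38). It had 32.0, 30.2 and 32.8 CPM in sg-con and 9.64, 12.4 and 12.8 CPM in sg-kiaa1522. The groups were far apart, and the mean in sg-kiaa1522 was 36.8% of that in sg-con. Its log2 fold change was -1.44 (SE 0.124), with an adjusted p of 1.3e-04 by edgeR's quasi-likelihood test, and the exact two-sided permutation test of the 6 CPM values gave the smallest p that 3 against 3 libraries allow, 0.1. Fancd2, its partner in the clamp, had 47.7, 41.7 and 41.9 CPM in sg-con and 20.6, 27.4 and 29.3 CPM in sg-kiaa1522. It too was lower in every sg-kiaa1522 library, by a log2 fold change of -0.76 (SE 0.137, adjusted p = 0.0029). Fancl, the ubiquitin ligase of the core complex, had 13.0, 13.6 and 14.9 CPM in sg-con and 8.40, 9.38 and 9.19 CPM in sg-kiaa1522. This was a change of -0.62 (SE 0.11, adjusted p = 0.0026), so both clamp subunits and the enzyme that modifies them were lower. These 3 genes kept their calls in all 6 fits that left out a library.

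The other core complex genes were mixed, with 1 higher, 1 lower and the rest not called or not tested. Fancb, which sits with Fancl in the catalytic module, had 13.1, 11.4 and 10.1 CPM in sg-con and 16.1, 14.7 and 18.6 CPM in sg-kiaa1522, a rise of 0.51 on the log2 scale (SE 0.139, adjusted p = 0.017 by edgeR's quasi-likelihood test). Its call was lost without sg-con replicate 2, sg-con replicate 3 or sg-kiaa1522 replicate 3, with log2 fold changes between 0.41 and 0.60 over all 6 such fits. Fancg was lower at -0.46 (adjusted p = 0.017 by the same test), and so was the helicase gene Brip1 at -0.41 (adjusted p = 0.029), with calls kept in 3 and 2 of these fits. Fanca at -0.17, Fance at 0.0017, the translocase gene Fancm at 0.028 and the nuclease scaffold gene Slx4 at -0.028 were not called. With 1 library left out Fanca ran from -0.29 to -0.0345 and Slx4 from -0.10 to -0.000127. Fancc had 76, 90 and 88 counts in sg-con and 32, 66 and 51 in sg-kiaa1522 and was not tested. With no filter it was called lower, at -0.63, which made 6 of 11 crosslink genes lower. The count of 5 lower genes fell to 3 without sg-con replicate 2 and to 3 without sg-kiaa1522 replicate 2. This was 30% in both fits, beside 21.3% and 21.1% of all tested genes lower. Exons of Fanci shared 16% of their length with the antisense gene Polg, whose log2 fold change was 0.40, and those of Fancl shared 13.7% with Vrk2, at 0.086. The counting strand is not given in the sources used here, so reads in these stretches could not be assigned to either gene.

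**Figure D2:**
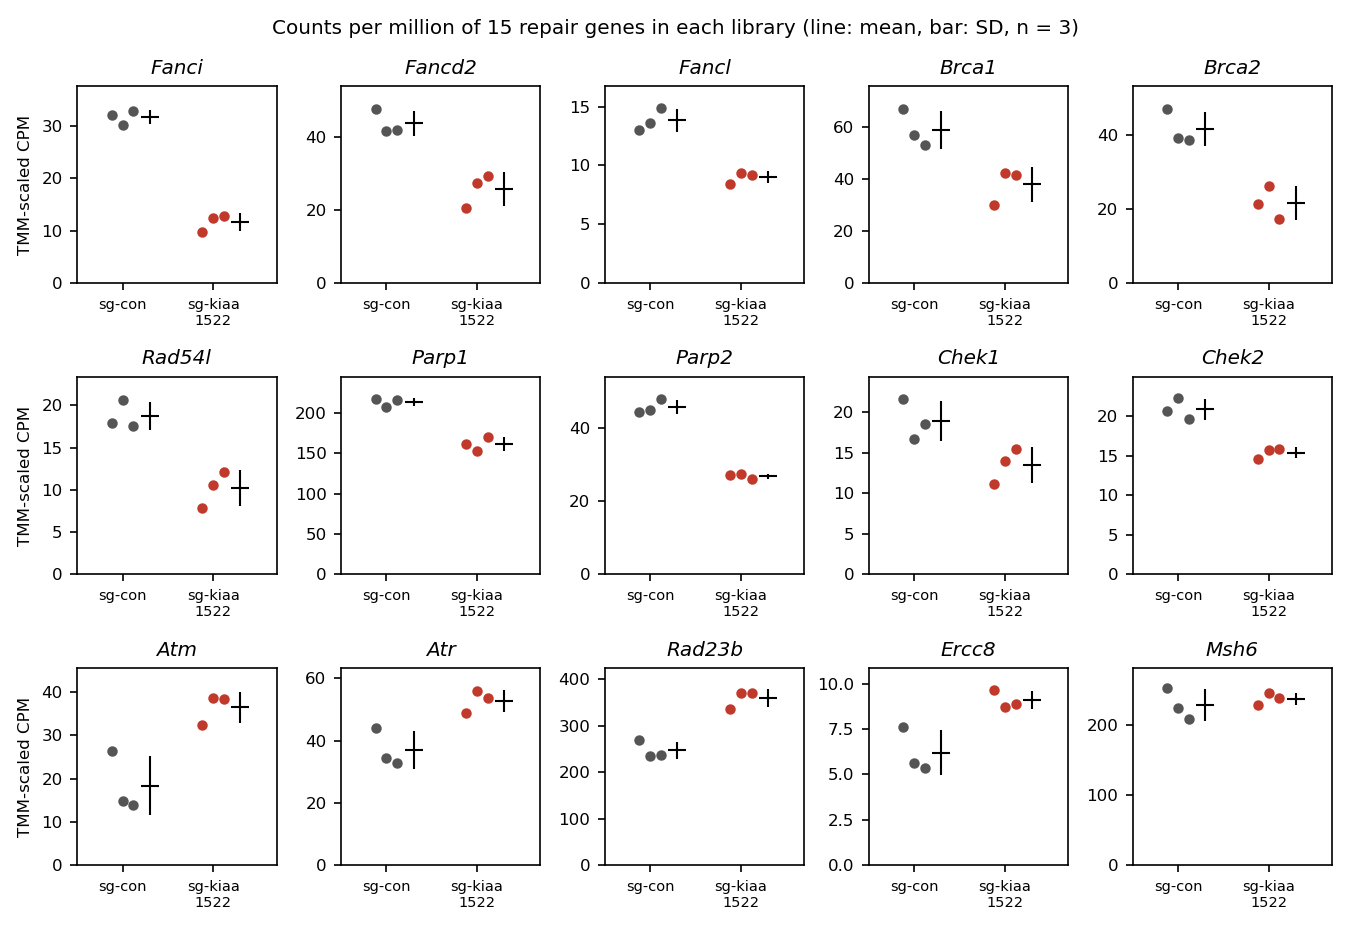
TMM-scaled CPM (y axis, from 0) of 15 repair genes in each of the 3 sg-con and 3 sg-kiaa1522 libraries, with the mean and SD beside the points. The 14 genes other than Msh6 are called members chosen with groups that do not overlap, so their separation follows from the choice. Among all tested genes, 61.7% had groups that did not overlap. The groups of Msh6 overlap, and sg-con replicate 1, the leftmost grey point, is the highest of its group for Atm at 26.3 CPM.

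Homologous recombination had 8 genes lower, 1 higher and 5 not called. Brca2, which loads the recombinase onto single-stranded DNA, lies on the plus strand of chromosome 5 from 150522630 to 150570329. It had 47.0, 39.4 and 38.8 CPM in sg-con and 21.3, 26.4 and 17.3 CPM in sg-kiaa1522. Every sg-kiaa1522 library was below every sg-con library, and the log2 fold change was -0.94 (SE 0.16, adjusted p = 0.0022 by edgeR's quasi-likelihood test). Rad54l, a motor protein that acts on the filament during strand invasion, had 17.9, 20.6 and 17.6 CPM in sg-con and 7.83, 10.6 and 12.1 CPM in sg-kiaa1522. Its change was -0.87 (SE 0.164, adjusted p = 0.0035), and sg-kiaa1522 replicate 1 was the lowest library. Exons of Rad54l shared 15.4% of their length with the antisense gene Lrrc41, at 0.28. Brca1, the ubiquitin ligase that promotes end resection and recruits Brca2 through Palb2, had 67.0, 56.9 and 52.9 CPM in sg-con and 30.0, 42.1 and 41.6 CPM in sg-kiaa1522. The groups did not overlap, with a change of -0.63 (SE 0.151, adjusted p = 0.01). Xrcc3, a paralog of the recombinase, had 7.52, 8.04 and 6.60 CPM in sg-con and 4.78, 4.91 and 4.65 CPM in sg-kiaa1522. It was lower by a similar amount, -0.63 (SE 0.134, adjusted p = 0.006), from a far lower level in CPM.

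The paralog genes Xrcc2, Rad51c and Rad51d were also lower, with Xrcc2 at -0.57 (adjusted p = 0.011), Rad51c at -0.52 (adjusted p = 0.01) and Rad51d at -0.23 (adjusted p = 0.042) by edgeR's quasi-likelihood test. Bard1, the obligate partner of Brca1, was at -0.57 (adjusted p = 0.0071), and at -0.36 with the median of its chromosome, chromosome 1, subtracted. The call of Rad51d held in 1 of the 6 fits that left out a library, the one without sg-con replicate 1, with log2 fold changes between -0.26 and -0.22, while the other 7 lower genes of the pathway kept theirs in all 6. Rad51d was also not called by DESeq2, edgeR's exact test, its likelihood ratio test, with no filter or with filterByExpr. The pathway then had 7 lower genes. Rad52, an annealing protein, went the other way, with 27.5, 20.8 and 21.6 CPM in sg-con and 34.3, 38.1 and 28.5 CPM in sg-kiaa1522. Its log2 fold change was 0.53 (SE 0.149, adjusted p = 0.019), and its call was kept in 2 of the 6 fits, those without sg-con replicate 1 or sg-kiaa1522 replicate 3, where the values over all 6 ran from 0.43 to 0.66. The break sensor genes were not called, with Mre11a at 0.14, Rad50 at 0.12 and Nbn at -0.11 (-0.18 to -0.0533 with 1 library left out). Rad50, however, was called higher without sg-con replicate 1, the largest of its 6 values at 0.18. Neither Palb2, at -0.31 (-0.41 to -0.15 with 1 library left out), nor the junction nuclease gene Mus81, at 0.18 (0.023 to 0.31), passed the test.

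The 3 genes of single-strand break and base excision repair were all lower. Parp2, a polymerase that marks strand breaks with poly(ADP-ribose), had 44.3, 44.8 and 47.9 CPM in sg-con and 27.0, 27.3 and 26.0 CPM in sg-kiaa1522. The groups lay far apart with little spread, and the log2 fold change was -0.77 (SE 0.076, adjusted p = 2.1e-04 by edgeR's quasi-likelihood test). Parp1, the main enzyme of this kind, had 218, 208 and 216 CPM in sg-con and 161, 153 and 170.2 CPM in sg-kiaa1522. It was lower by -0.41 (SE 0.0631, adjusted p = 0.0015). Xrcc1, the scaffold that both enzymes recruit, had 28.0, 32.5 and 39.4 CPM in sg-con and 25.8, 25.0 and 23.9 CPM in sg-kiaa1522, with a change of -0.42 (SE 0.131, adjusted p = 0.029). The groups of Xrcc1 were close at 28.0 and 25.8 CPM, and its call was kept in 1 of the 6 fits that left out a library, the one without sg-con replicate 1, with values between -0.54 and -0.29 over the 6. The chromosomes of both Parp genes had low medians, with -0.38 over 343 tested genes of chromosome 14, where Parp2 lies, and -0.21 over 569 of chromosome 1, where Parp1 lies. With the chromosome median subtracted, Parp2 was at -0.39 and Parp1 at -0.20, and what lowers these chromosomes was not tested.

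Nucleotide excision repair had 6 genes higher and 1 lower. Rad23b, which stabilises the damage sensor Xpc, had 269, 236 and 237 CPM in sg-con and 337, 371 and 369.8 CPM in sg-kiaa1522. All 3 sg-kiaa1522 libraries were well above sg-con, by a log2 fold change of 0.54 (SE 0.0754, adjusted p = 9.4e-04 by edgeR's quasi-likelihood test). Ercc8 and Ercc6, the Cockayne syndrome genes that act where an RNA polymerase stalls at a lesion, were both higher. Ercc8 had 7.63, 5.61 and 5.34 CPM in sg-con and 9.64, 8.73 and 8.89 CPM in sg-kiaa1522, a rise of 0.55 (SE 0.163, adjusted p = 0.024). Ercc6 had 19.5, 17.2 and 17.0 CPM in sg-con and 24.1, 25.0 and 26.3 CPM in sg-kiaa1522, a rise of 0.49 (SE 0.0961, adjusted p = 0.0042), although it lies on chromosome 14, whose median was -0.38, and was at 0.87 with that median subtracted. Ercc1, which encodes the partner of the Xpf nuclease, was the lower gene, with 23.7, 24.3 and 32.7 CPM in sg-con and 22.3, 19.5 and 18.0 CPM in sg-kiaa1522. Its change was -0.43 (SE 0.151, adjusted p = 0.044), and the groups nearly touched at 23.7 and 22.3 CPM.

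Global damage recognition was represented by Xpc at 0.28 (adjusted p = 0.014) and Ddb1 at 0.21 (adjusted p = 0.013), both higher by edgeR's quasi-likelihood test, and by Ddb2 at -0.023, which was not called and shared 23.8% of its exon length with the antisense gene Acp2, at -0.72. After subtraction of the chromosome 19 median, Ddb1 was at 0.031. The helicase gene Ercc3 was higher at 0.30 (adjusted p = 0.015), whereas its partner in the unwinding complex, Ercc2, was at -0.044, with 24.6% of its exon length shared with the antisense gene Gm26852 and 17.8% with Klc3, which had 2 and 205 counts over the 6 libraries. The remaining incision genes were not called, with Ercc4, which encodes Xpf, at -0.25 (called lower without sg-kiaa1522 replicate 1), the nuclease gene Ercc5 at 0.015 and the verification factor Xpa at -0.18. Rad23b and Ercc6 kept their calls in all 6 fits that left out a library, Ddb1 in 5, Ercc3 in 4 and Xpc in 3. The count of 6 higher genes fell to 2 without sg-con replicate 2, to 4 without sg-kiaa1522 replicate 2 and to 3 without sg-kiaa1522 replicate 3. These counts are 16.7%, 33.3% and 25% of the pathway, beside 20.5%, 20.8% and 20.6% of all tested genes higher in the same fits. Ercc8 and Ercc1 kept their calls in 1 and 2 of the 6 fits, with values from 0.45 to 0.72 and from -0.52 to -0.27.

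Of the 4 checkpoint kinases, 2 were higher and 2 were lower. Atm, which responds to double-strand breaks, is read from the minus strand of chromosome 9, between 53439149 and 53536740. It had 26.3, 14.9 and 14 CPM in sg-con and 32.4, 38.7 and 38.4 CPM in sg-kiaa1522. Replicate 1 of sg-con stood above the other 2 sg-con libraries and still below sg-kiaa1522. The log2 fold change was 0.99 (SE 0.236, adjusted p = 0.0099 by edgeR's quasi-likelihood test), and it lay between 0.82 and 1.33 in the fits that left out a library, the highest value being without sg-con replicate 1. Atr, which responds to stalled forks, had 43.9, 34.3 and 32.8 CPM in sg-con and 48.9, 55.8 and 53.6 CPM in sg-kiaa1522. It rose by 0.51 (SE 0.125, adjusted p = 0.011), again with sg-con replicate 1 nearest to the other group. With the trend on exon length taken out, Atm was at 0.87 and Atr at 0.26, both still called. Their effector kinases were lower. Chek1 had 21.6, 16.7 and 18.5 CPM in sg-con and 11.1, 13.9 and 15.5 CPM in sg-kiaa1522, a change of -0.48 (SE 0.154, adjusted p = 0.033). Chek2 had 20.7, 22.3 and 19.6 CPM in sg-con and 14.6, 15.7 and 15.8 CPM in sg-kiaa1522, a change of -0.44 (SE 0.0964, adjusted p = 0.0069). Atm, Atr and Chek2 kept their calls in all 6 fits, and Chek1 kept its call in 2, those without sg-con replicate 2 or sg-kiaa1522 replicate 3, with values between -0.59 and -0.36.

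Mismatch repair had 0 called genes of 3 by edgeR's quasi-likelihood test. Msh6, which encodes a subunit of the complex that finds base mismatches, had 253, 224 and 208 CPM in sg-con and 228, 245 and 238 CPM in sg-kiaa1522, so the groups overlapped, at a log2 fold change of 0.057. Msh3, a subunit of the complex that finds loops, was at 0.12. Pms2, a subunit of the nicking endonuclease, had 33.3, 31.7 and 34.3 CPM in sg-con and 30.4, 25.2 and 19.7 CPM in sg-kiaa1522. Its groups did not overlap, and at -0.40 (SE 0.151) its adjusted p of 0.056 just missed the threshold. At an unadjusted p under 0.05, 1 of these 3 genes passed, and DESeq2, edgeR's exact test and its likelihood ratio test each called 1 of them, Pms2, as did the fit without sg-kiaa1522 replicate 1, where it was at -0.56. Of the translesion genes, the scaffold polymerase gene Rev1 had 35.7, 36.1 and 37.9 CPM in sg-con and 41.7, 46.9 and 40.6 CPM in sg-kiaa1522, a rise of 0.24 (SE 0.0852, adjusted p = 0.049) that was called in 0 of the 6 fits that left out a library, where it lay between 0.17 and 0.28, and was not called by DESeq2. Exons of Rev1 shared 26.6% of their length with the antisense gene Eif5b, at -0.25, and with the chromosome 1 median subtracted Rev1 was at 0.45. Rev3l, the catalytic subunit of polymerase zeta, was at 0.41 with overlapping groups and was not called, but it was called higher without sg-con replicate 1, the largest of its 6 leave-one-out values, which ran from 0.25 to 0.68. Polh, polymerase eta, was at -0.048 and was not called.

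Levels between genes were compared per length, in transcripts per 1000000 (TPM) computed from the counts and the exon length of each gene. Ddb1, which also serves as the adaptor of a large family of ubiquitin ligases, was the highest, at 462 TPM (SD 30.9, n = 3) in sg-con and 571 TPM (SD 11.6, n = 3) in sg-kiaa1522. Msh6 had 135 TPM (SD 16.4) in sg-con and 149 TPM (SD 5.59) in sg-kiaa1522, Rad23b had 111 TPM (SD 11) and 171 TPM (SD 9.98), and Parp1 had 104 TPM (SD 4.56) and 83.5 TPM (SD 5.81). Msh6 was thus above Rad23b in sg-con and below it in sg-kiaa1522. Averaged over the 6 libraries, Brca1 was at 15 TPM, Brca2 at 6.10 TPM, Xrcc2 at 3.76 TPM, Palb2 at 3.54 TPM, Ercc8 at 2.66 TPM and Fancc at 1.24 TPM. The order depended on the length used. With the mean transcript length in place of the exon length, Ddb1 at 1375 TPM was still the highest and Fancc at 4.0 TPM the lowest, but Parp1 at 259.6 TPM came before Rad23b at 223 TPM and Msh6 at 179 TPM, Brca1 was at 35.6 TPM, and Palb2 at 5.52 TPM was below Ercc8 at 6.08 TPM.

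**Figure D3:**
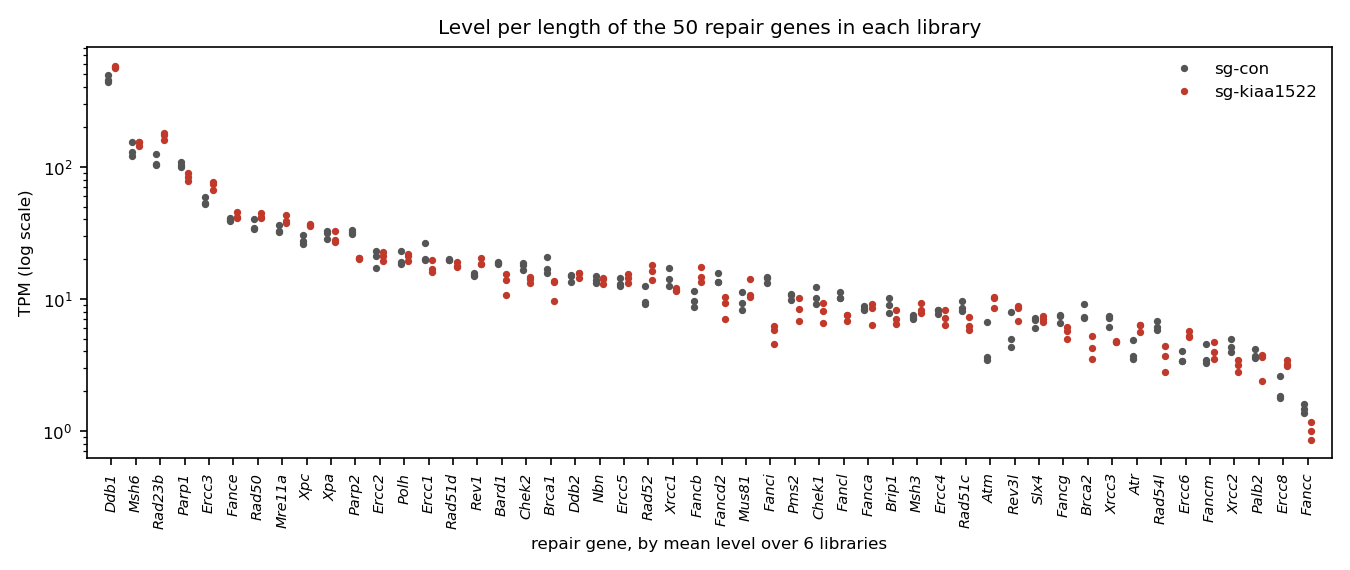
Level per length of the 50 repair genes in TPM (y axis, log scale) in each library, ordered by the mean over the 6 libraries. The levels run from 517 TPM for Ddb1 to 1.24 TPM for Fancc, with grey points for sg-con and red points for sg-kiaa1522.

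Further genes of each process, from hand-written lists, were counted in the same fit, in which 26.3% of all tested genes were lower and 26.3% higher. The other mismatch repair genes, mainly the clamp loader and polymerase subunits shared with replication, had 7 lower and 0 higher of 10 tested, with a median of -0.46, and no gene of this list was higher at an unadjusted p under 0.05 or by DESeq2. Its largest changes were in the clamp loader genes Rfc2 at -1.0 (adjusted p = 0.0016 by edgeR's quasi-likelihood test), Rfc5 at -0.92 and Rfc4 at -0.63, and in Pms1 at -0.71. With the chromosome 1 median subtracted Pms1 was at -0.50. The other homologous recombination genes had 6 lower and 2 higher of 20 tested, with a median of -0.20. They included the resection nuclease gene Exo1 at -1.04 (adjusted p = 7.3e-04 by the same test), or -0.83 with the chromosome 1 median subtracted. Also in this list were Psmc3ip at -1.0, Rad51ap1 at -0.84 and Polq, the polymerase of microhomology-mediated joining, at -0.57. This list had 3 lower genes without sg-kiaa1522 replicate 1, and its higher count was 1 without sg-con replicate 1, sg-con replicate 3 or sg-kiaa1522 replicate 3 and 0 without sg-con replicate 2 or sg-kiaa1522 replicate 2. The other crosslink genes had 3 lower and 2 higher of 12, with a median of -0.17, among them Eme1, the partner of Mus81, at -0.87, Faap20 at -0.78, Wdr48 at 0.46 and Ube2t, which conjugates ubiquitin to the clamp, at -0.41, or -0.20 with the chromosome 1 median subtracted. At 25% lower and 16.7% higher, the list was at or under the shares of all tested genes. Its median ran from -0.21 to -0.10 with 1 library left out.

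The other excision genes had 14 lower and 7 higher of 34 tested, with a median of -0.066. Base excision enzymes moved in both directions, with the glycosylase Neil3 at -1.37 (adjusted p = 5.7e-04 by edgeR's quasi-likelihood test), the abasic endonuclease Apex1 at -1.07 (-0.69 with the chromosome 14 median subtracted) and the flap nuclease Fen1 at -1.06, but the uracil glycosylase Ung at 0.96. The lower count of this list was 9 without sg-con replicate 2, sg-kiaa1522 replicate 2 or sg-kiaa1522 replicate 3. End joining, which seals breaks without a template, had 3 lower and 3 higher of 9. Its DNA end-binding subunit Xrcc5 was lower at -1.0 (adjusted p = 2.2e-04), or -0.79 with the chromosome 1 median subtracted. The nuclease Dclre1c at 0.65, the kinase Prkdc at 0.57 and Rif1 at 0.52 were higher. Without sg-con replicate 2, sg-kiaa1522 replicate 2 or sg-kiaa1522 replicate 3 the higher count was 1. With a correction for exon length 4 genes of end joining were lower and 2 higher. Damage signalling had 3 lower and 4 higher of 16, with the fork protection gene Timeless at -1.57 (adjusted p = 6.2e-05), the phosphatase Cdc25b at 0.70, the kinase Wee1 at 0.65 and the clamp gene Rad1 at 0.48. Its shares, 18.8% lower and 25% higher, were under those of all tested genes. Of the other translesion and damage reversal genes, 1 of 8 was lower, Poli at -0.88, and 0 were higher, at an unadjusted p under 0.05 and by DESeq2 too, while 0 were lower without sg-con replicate 3 or sg-kiaa1522 replicate 2 and 1 was higher without sg-con replicate 1.

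Several of these lower genes are known to peak in S phase, so a list of 24 S phase genes, sharing no gene with the repair lists, was measured beside them. It had 20 lower and 2 higher, with a median of -0.55, led by the thymidylate synthase gene Tyms at -2.10 (adjusted p = 9.0e-05 by edgeR's quasi-likelihood test), Chaf1b at -1.21, Rrm2 at -1.12 and Cdc6 at -1.01. A list of 24 G2 and M phase genes had 5 lower and 4 higher, with a median of -0.079, led by Ndc80 at -0.71, Aurka at 0.59, Cdc20 at 0.45 and Ttk at -0.37. Without sg-kiaa1522 replicate 1 the G2 and M phase list had 2 lower and 6 higher, with a median of 0.011. Its lower count was 3 without sg-con replicate 1, sg-con replicate 3 or sg-kiaa1522 replicate 3 and 2 without sg-con replicate 2, and its higher count was 2 without sg-kiaa1522 replicate 3. The S phase list had between 17 and 19 lower genes over these fits, and its higher count was 1 without sg-con replicate 2 or any 1 of the sg-kiaa1522 libraries. The mean of the S phase list, as log2 CPM centred per gene, was 0.28, 0.30 and 0.28 in sg-con and -0.43, -0.25 and -0.19 in sg-kiaa1522. Homologous recombination, on the same scale, was at 0.20, 0.14 and 0.15 in sg-con and at -0.28, -0.079 and -0.13 in sg-kiaa1522. The crosslink genes were at 0.23, 0.16 and 0.12 in sg-con and at -0.29, -0.15 and -0.076 in sg-kiaa1522. In all 3 lists sg-kiaa1522 replicate 1, the library of the lowest depth, was the lowest. The part of the S phase list in the change of the repair genes was not tested.

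**Figure D4:**
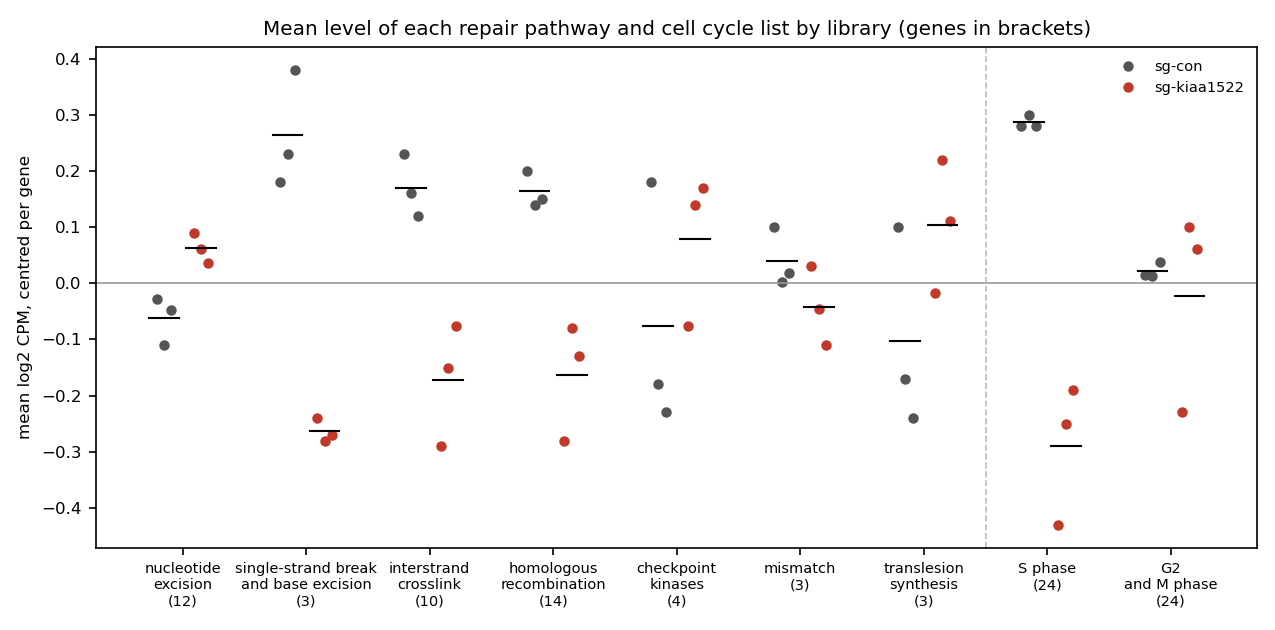
Mean log2 CPM, centred per gene (y axis), of the 7 repair pathways and of the S phase and G2 and M phase lists, with 1 point per library, a line at each group mean and the number of tested genes in brackets. The groups separate for the excision and single-strand break genes, the crosslink genes, homologous recombination and the S phase list, where sg-con lies between 0.28 and 0.30, and overlap for the checkpoint kinases, the mismatch and translesion genes and the G2 and M phase list.

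Exon length moved with the libraries as well as with the groups. Over 10024 tested genes the Spearman correlation of the log2 fold change with exon length was 0.221, and the median change ran from -0.19 in the shortest of 10 equal classes of genes to 0.20 in the longest. Within sg-con, replicate 1 over the mean of replicates 2 and 3 correlated with exon length at 0.496 over these genes and at 0.495 over the 49 repair genes, which share libraries and are not independent. Over the repair genes the change between the groups correlated with length at 0.148. With the trend on length taken out of each library, a setting chosen after seeing the data, 18 repair genes were lower and 10 were higher. Of the 30 called genes 27 kept their call, Ercc1, Rad51d and Rev1 lost it, and Pms2 became lower at -0.50. Under this setting the kinase genes, which have exon lengths of 10338 bases (Atm) and 23629 bases (Atr), were at 0.87 and 0.26, Ercc6 was at 0.32, and Brca2, with 13643 bases of exon, passed -1 at -1.12.

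**Figure D5:**
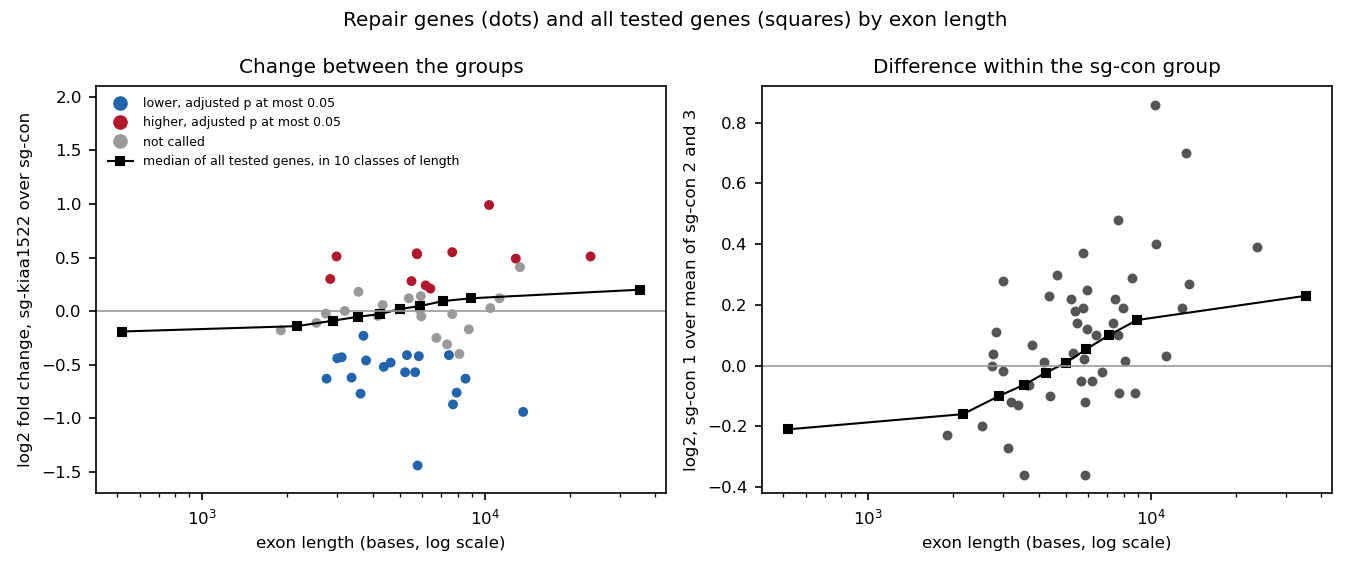
Left, log2 fold change (sg-kiaa1522 over sg-con) against exon length in bases (log scale) for the 49 repair genes (dots, coloured by call) and the median of all tested genes in 10 equal classes of length (squares, at the middle of each class's range). Right, log2 of sg-con replicate 1 over the mean of sg-con replicates 2 and 3 for the same genes, where the medians rise from -0.21 to 0.23.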

How the data were processed

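The 3 sg-con and 3 sg-kiaa1522 RNA-seq libraries were made from total RNA of 889 cells. The authors filtered reads with Seqtk, aligned them to GRCm38 with HISAT2 2.0.4 and, per the labels, used StringTie 1.3.0, and deposited raw counts per gene, with no normalization. The counting strand and annotation release are not given in the sources used here. Groups came from the sample titles. Genes with more than 500 summed counts (10046 of 34745) were scaled by TMM and tested in edgeR 4.0.16 (R 4.3.3) by the quasi-likelihood test without covariates, and p-values were adjusted by Benjamini-Hochberg over all of them. Simulated data with known changes were used to check the script. The SE is the log2 fold change over the square root of F. TPM used exon lengths of GENCODE release 21, which matched 34267 genes. Floors of 3 counts cover counting error only. Library pairs of a group differed beyond sampling noise, with chi-square per degree of freedom between 10.2 and 24.9.

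The members, the pathway lists and the tests were chosen with earlier results of these data known. Every member is named. Those past the threshold of the study's methods, and in each pathway up to 4 called members with groups that do not overlap, are given in full, and up to 4 called genes are named from each further list. Lists are described by counts and medians and have no test of their own. Results were recomputed with the exact test and the likelihood ratio test of edgeR, with DESeq2 1.42.0, and with other size factors, other filters, a replicate block, a correction for exon length, removal of the chromosome median and leaving out each library.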

Additional observations from a re-analysis of the deposited data

How the results depend on the processing

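Of the 30 called repair genes, 28 kept their call with no filter, with DESeq2 and with the exact test or the likelihood ratio test of edgeR, 30 under RLE size factors, and 29 under library size alone and under filterByExpr. None of the 30 changed direction in any setting run. With the replicate block 22 kept it (14 lower, 8 higher), and 1 member, Atm at 1.04, was then higher past the threshold of the study's methods. Same-numbered libraries deviated from their group means with correlations of -0.214, -0.0508 and -0.165, and other pairs with values between -0.0715 and 0.2. The labels do not say whether the numbers pair the samples, and these values cannot settle it. With 1 library left out, between 18 and 27 kept their call. Over those fits the lower members ranged from 13 to 17, the higher from 4 to 12, the lower past the threshold from 1 to 2 and the higher past it from 0 to 1. The medians ranged from -0.18 to -0.064 over all members, from -0.49 to -0.33 for homologous recombination, from -0.34 to -0.20 for crosslink genes, from -0.0104 to 0.12 for mismatch genes and from -0.54 to -0.40 for single-strand break genes. With the exon length correction 2 members were lower past the threshold and the mismatch median was -0.0357. The crosslink median was -0.40 with no filter and -0.40 with filterByExpr, which admit Fancc and call it lower at -0.63 in both, for 6 lower of 11. Removing the chromosome median shifted the fold changes only and was not a new test. With it, the medians were -0.19 for all members, -0.33 for homologous recombination, 0.12 for mismatch and 0.45 for translesion genes. Members near 0 changed sign: with the exon length correction Ercc5 was -0.0254, Ddb2 0.0773, Fancm -0.10, Nbn 0.00556 and Msh3 -0.0357, with the chromosome median removed Fancm was -0.0929, Mus81 -0.00188 and Polh 0.0647, and Fance was -0.0134 with library size alone. With 1 library left out Ercc2 ran from -0.15 to 0.0594, Ercc5 from -0.0444 to 0.0937, Ddb2 from -0.07 to 0.017, Fance from -0.0553 to 0.0318, Fancm from -0.073 to 0.17, Msh6 from -0.0104 to 0.13 and Polh from -0.11 to 0.0333. The cause was not tested.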
